A study of Mus musculus with 2 samples.

Results

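The 9 genes described here encode the receptors through which the myeloid growth factors act on blood cells: Csf1r, Kit, Flt3, Csf2ra, Il3ra, Csf2rb, Csf2rb2, Csf3r and Epor. They were chosen as a named list of receptor genes and looked up by symbol, and all 9 were found among the 32286 features of the deposited matrices. Their RNA was followed across cell classes of mouse bone marrow in 2 droplet-based 3′ single-cell libraries, 1 per genotype, called control marrow and MYC marrow below. The control library came from an Mx1Cre+/-;Rosa26+/+ mouse genotype and the MYC library from Mx1Cre+/-;Rosa26LSL-MYC/LSL-MYC, in which a MYC transgene at the Rosa26 locus is silent until Cre removes a stop cassette. Both genotypes carry the Mx1-Cre allele, which interferon or an inducer of it switches on in blood cells and also in other tissues. The labels give both samples as primary hematopoietic cells of the bone marrow. Neither an induction schedule, an age, a sex, nor the number of animals behind a library is given in the sources used here. The stated aim of the study was to compare expression in marrow blood cells after MYC overexpression in hematopoietic stem cells.

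Growth factor receptors of the marrow fall into 2 structural families. Csf1r, Kit and Flt3 are receptor tyrosine kinases, which pair on binding their ligand and phosphorylate themselves: Csf1r binds M-CSF and interleukin 34 and supports monocytes and macrophages, Kit binds stem cell factor on stem cells, early progenitors and mast cells, and Flt3 binds Flt3 ligand on lymphoid-primed progenitors and dendritic cells. The others are cytokine receptors without a kinase of their own, which signal through JAK kinases and STAT factors. Csf3r (G-CSF) and Epor (erythropoietin) work as pairs of 1 chain, whereas Csf2ra (GM-CSF) and Il3ra (interleukin 3) are ligand-specific alpha chains that signal through the common beta chain Csf2rb, and mice hold a second beta chain gene, Csf2rb2, whose product serves interleukin 3 only.

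The myeloid factor PU.1 and the erythroid factor GATA1 are textbook regulators of several of these genes, so the short promoter stretches below, picked after the matches were counted, show where the core letters of their motifs lie in 4 members. RefSeq promoters (GRCm38.p6) were at hand for 7 of the 9 genes, and no entry was used for Csf1r or Csf2rb. Each line is 30 bases of the gene's own strand, 5′ to 3′, with matches in capitals: GAGGAA or its reverse complement TTCCTC for PU.1, AGATAA or its reverse complement TTATCT for GATA.
Csf3r, chr4:126024561-126024590, plus strand: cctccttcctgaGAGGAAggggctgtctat
Csf2ra, chr19:61228419-61228448, minus strand: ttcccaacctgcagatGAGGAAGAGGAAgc
Csf2rb2, chr15:78305871-78305900, minus strand: ctctgtgtctgcTTCCTCcagagaagtcag
Epor, chr9:21963613-21963642, minus strand: ggtggctgtagcTTATCTgtccccagcctg
The Csf3r match began 86 bases before the RefSeq start of the gene, the nearer of the 2 Csf2ra matches 8 bases before, the Csf2rb2 match 167 bases before and the Epor GATA match 54 bases before. GENCODE vM21, which gives the gene positions below, starts Csf3r and Csf2ra further upstream than RefSeq, so the Csf3r match and the nearer Csf2ra match lie inside its bounds of these genes. In the 250 bases before the start, GAGGAA on either strand was present in 4 of the 7 genes (Kit was the other one) and in 23.3% of all 32851 RefSeq promoters. AGATAA was present in 1 of the 7 and in 9.99% of all promoters. Motif letters of 2 further factors were searched in the same way: TTNNGNAA (C/EBP) was present in 2 of the 7 and in 36.8% of all promoters, and TGTGGT (RUNX) in 1 of the 7 and in 14.0%. These are letter matches and not binding data.

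The deposited matrices held 17073 barcodes and 131884603 UMIs (unique transcript molecules counted) in control marrow and 14496 barcodes and 110012176 UMIs in MYC marrow, and 97 barcodes were present in both. After quality filters and removal of called doublets, 14760 control cells and 12646 MYC marrow cells were left. The added MYC feature had 0 UMIs in control marrow (95% upper limit 0.0308 CPM) and 295 UMIs in MYC marrow (2.87 CPM, 95% interval 2.55 to 3.22, where CPM is counts per 1000000 UMIs). Clusters were named from marker lists that held none of the 9 receptors, and the receptors were also kept out of the genes used to cluster. Unnamed clusters of low UMI count held 17.2% of control cells and 21.7% of MYC marrow. Several clusters came mostly from 1 library: mature neutrophil clusters 0, 1 and 5 held 1645, 1001 and 1380 control cells against 166, 86 and 226 of MYC marrow, cluster 11 held 232 against 2276, and the macrophage class held 20 against 635. Differences between the libraries in mature neutrophils are therefore also given within single clusters for most of the genes named. With 1 library per genotype, no test of the genotype can be made, every interval covers counting error alone, and genotype, animal and library cannot be told apart.

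For 9 of 9 receptors the highest class was the same in both libraries. Csf1r was highest in nonclassical monocytes, Kit in stem or multipotent progenitors, Flt3 and Csf2rb2 in plasmacytoid dendritic cells, Csf2ra and Csf3r in mature neutrophils, Il3ra and Csf2rb in basophils or mast cells, and Epor in late erythroid cells. In MYC marrow the counting intervals of the highest and the next class overlapped for Flt3, Csf2ra, Csf2rb2 and Epor. Under 4 of the 5 other ways of choosing or classing the cells, 7 of 9 genes kept this class in both libraries. At a clustering resolution of 0.5 only 5 did: Csf1r was then highest in classical monocytes, Kit in basophils or mast cells, Csf2rb in mature neutrophils and Epor in early erythroid cells. At that resolution no cluster was named for stem or multipotent progenitors, nonclassical monocytes or conventional dendritic cells, so Csf1r and Kit could not keep their class. The basophil or mast cell class then held 388 control and 337 MYC marrow cells, against 186 and 148 in the main classes. These levels have a background, whose source (free RNA or remaining doublets) was not tested: T or NK cells, in which neither gene is expected, held 33.1 CPM of Csf3r and 29.1 CPM of Csf2ra in control marrow.

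**Figure D1:**
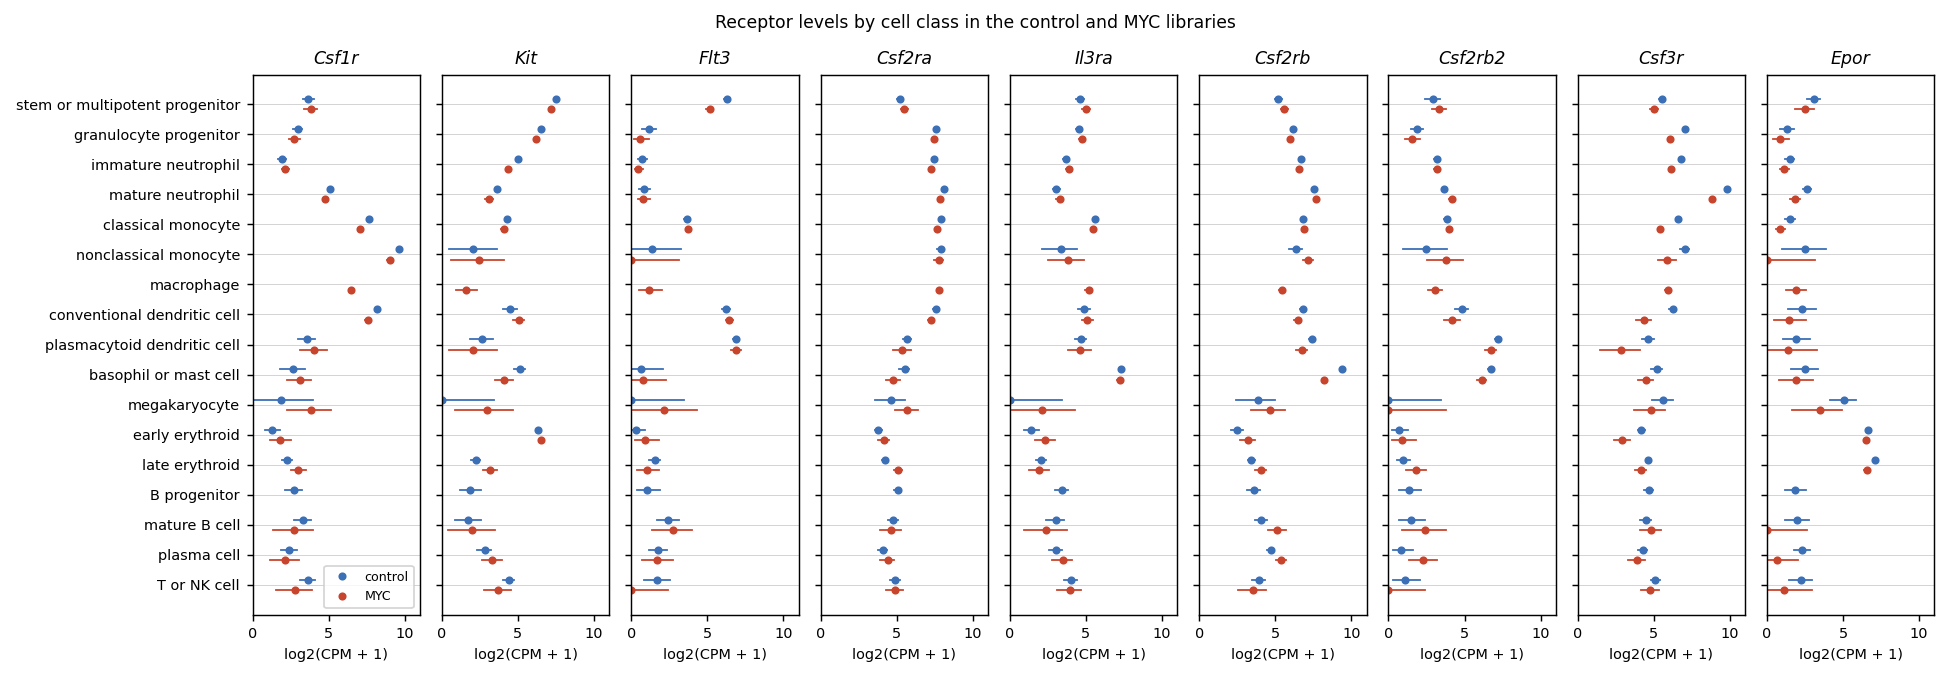
Level of each receptor, as log2(CPM + 1), in each cell class with at least 50 cells in control marrow (blue) and MYC marrow (red), with 95% counting intervals as bars. Csf3r stood highest in mature neutrophils at 908 CPM in control marrow and 456 CPM in MYC marrow, and Csf2ra was spread over all granulocyte and monocyte classes. Epor was highest in the 2 erythroid classes, followed by megakaryocytes at 32.3 CPM in control marrow and 10.2 CPM in MYC marrow.

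A ratio between the libraries was formed in the 11 classes with at least 100 cells in each, for genes with at least 50 UMIs over both, which left 72 pairs of a receptor and a class. A pair counted as higher or lower in MYC marrow when the ratio was at least 1.5-fold with a 95% counting interval that excluded 1. By this rule 6 pairs were higher and 18 lower, and the median log2 ratio of the 72 pairs was -0.19. Csf3r accounted for 7 of the 18 lower pairs. The ratios of all genes were themselves centred below 0, with class medians from -0.29 in granulocyte progenitors to -0.04 in conventional dendritic cells on the log2 scale. After scaling by the median of ratios, which removes this shift, 8 pairs were higher and 10 lower.

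Read against all genes of the same class, the receptors' counts stood furthest from the background in basophils or mast cells and in late erythroid cells. In basophils or mast cells 5 of 6 receptors tested were lower, where 18.3% of all genes tested were lower. In late erythroid cells 4 of 7 were higher, where 14.8% of all genes were higher. No receptor was higher in basophils or mast cells (8.13% of all genes) or lower in late erythroid cells (14.2%). The alternative with a minimum of 20 UMIs cannot change a call, and counts as kept. Of the 5 lower calls in basophils or mast cells, that of Csf2rb was kept in 10 of 10 alternatives, Kit in 8, Csf3r in 7, Csf2ra in 6 and Csf2rb2 in 5. Of these, Csf3r (35.5 and 21.0 CPM) and Csf2ra (44.9 and 26.4 CPM) were in MYC marrow at or below their levels in T or NK cells, 26.3 and 28.7 CPM. Of the 4 higher calls in late erythroid cells, that of Kit was kept in 9 of 9 alternatives, Csf2ra in 8 of 10, Csf1r in 5 of 8 and Csf2rb in 3 of 9. In control marrow all 4 lay below their levels in T or NK cells. In MYC marrow Kit (8.04 CPM) also lay below its T or NK level (11.9 CPM). Csf2ra (32.9 and 28.7 CPM), Csf2rb (15.6 and 10.8 CPM) and Csf1r (7.03 and 5.97 CPM) lay above theirs, with overlapping counting intervals. Kit did not pass within cluster 4 of this class (log2 ratio 0.66, -0.11 to 1.42). The make-up of the class and its neutrophil markers also differed, as given below.

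In stem or multipotent progenitors 1 of 8 receptors was lower (10.4% of all genes) and 0 higher (5.43%), and in granulocyte progenitors 1 of 6 was lower (25.1%) and 0 higher (4.97%). In immature neutrophils 2 of 8 were lower (17% of all genes) and 0 higher (7.07%), and in mature neutrophils 3 of 8 were lower (19.1%) and 0 higher (7.03%). In classical monocytes 3 of 9 were lower (15.9%) and 0 higher (7.56%), and in conventional dendritic cells 2 of 8 were lower (16.2%) and 0 higher (16.9%). In these 6 classes every receptor past the rule was lower, while most shares of all genes that were lower also exceeded those that were higher. Early erythroid cells had 1 of 5 higher (8.37%) and 1 lower (18.6%), and mature B cells 1 of 3 higher (6.1%) and 0 lower (17.7%). No receptor of the 4 tested passed the rule in T or NK cells, where 8.73% of all genes were higher and 8.81% lower.

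**Figure D2:**
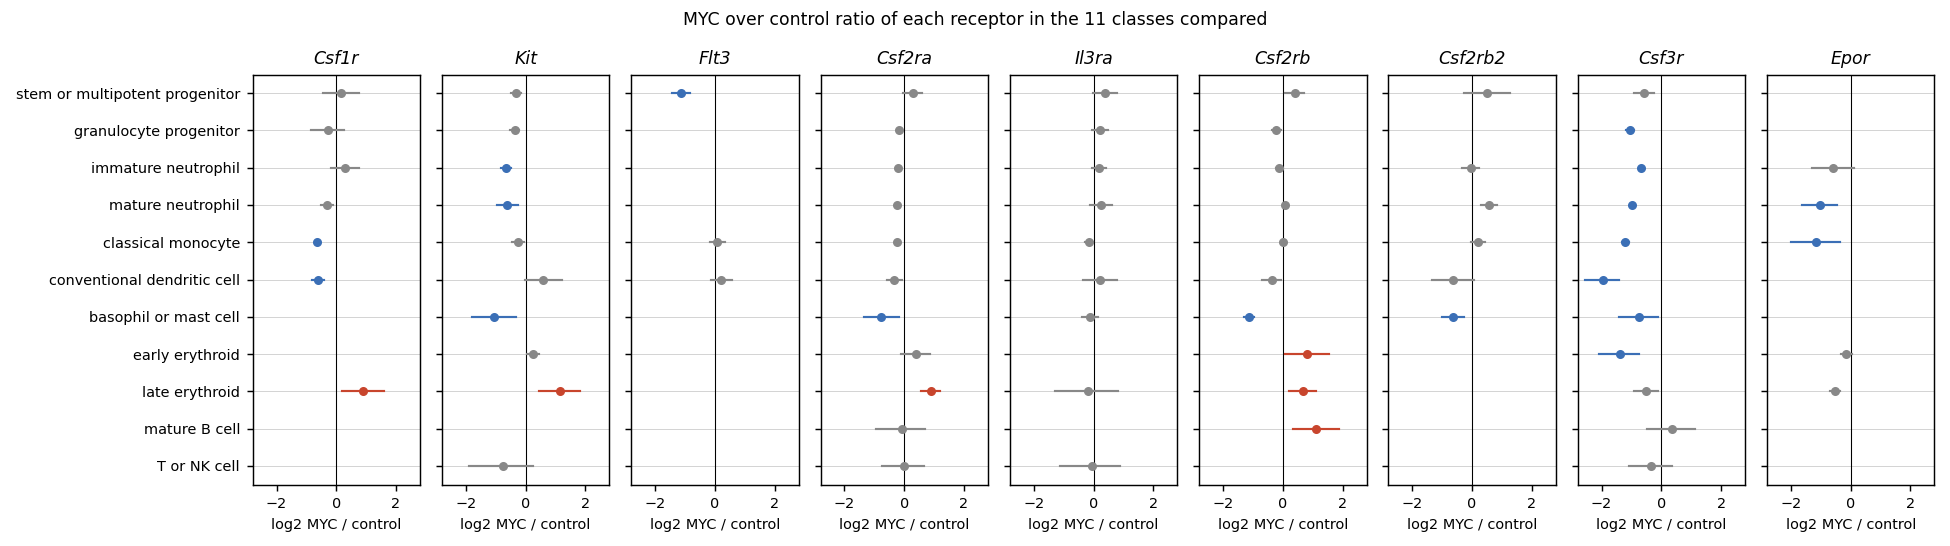
Log2 ratio of the MYC over the control level for each receptor in the 11 classes compared, with 95% counting intervals. Blue marks pairs at least 1.5-fold lower, red at least 1.5-fold higher, grey neither, and a missing point had under 50 UMIs. The Csf3r points lie below 0 in 10 of 11 classes.

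Csf3r (ENSMUSG00000028859, chr4:126024550-126044440, GRCm38), the G-CSF receptor that supports neutrophil production and release, was lower in MYC marrow in every myeloid class compared other than the stem class, where its ratio fell just short of 1.5-fold. In mature neutrophils it stood at 908 CPM (16928 UMIs, interval 894 to 921) in control marrow and 456 CPM (6429 UMIs, 445 to 467) in MYC marrow, a log2 ratio of -0.99 (-1.04 to -0.95). After each cell was thinned to 2000 UMIs, 71.6% of 3873 control cells and 55.6% of 2474 MYC marrow cells held a Csf3r UMI. The unthinned shares were 88.4% and 80.6%. T or NK cells, which should lack the receptor, showed thinned shares of 4.34% and 3.23%, at median depths of 6240.5 and 4456 UMIs against 4007.5 and 5044.5 in the mature neutrophils.

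The same direction was present earlier in the lineage. Granulocyte progenitors held 133 CPM of Csf3r in control marrow and 64.6 CPM in MYC marrow (log2 ratio -1.04, -1.19 to -0.90). Immature neutrophils held 111 and 69.7 CPM (-0.67, -0.76 to -0.58), and stem or multipotent progenitors 46.1 and 31.0 CPM (-0.57, -0.92 to -0.23), the latter within the range of the lymphoid classes given below. In both libraries mature neutrophils thus held far more than any earlier stage. Under median-of-ratios scaling the ratios were -0.78 in mature neutrophils, -0.76 in granulocyte progenitors and -0.45 in immature neutrophils, the last of which no longer passed 1.5-fold.

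Because the mature neutrophil clusters were unevenly shared by the libraries, the level of Csf3r was also compared inside each. In cluster 0, led by Il1b and Ptgs2 and with the highest Csf3r, the level was 2044 CPM in control marrow and 1169 CPM in MYC marrow. It was 727 and 322 CPM in cluster 1, 781 and 451 CPM in cluster 11, and 287 and 178 CPM in cluster 5. Log2 ratios within these 4 clusters ran from -1.18 to -0.69, and within the 3 immature neutrophil clusters from -0.84 to -0.57. Each of these 7 clusters thus had the lower level in MYC marrow, although cluster 6 at -0.57 was short of 1.5-fold. As counts of RNA these values do not give receptor protein at the cell surface.

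**Figure D3:**
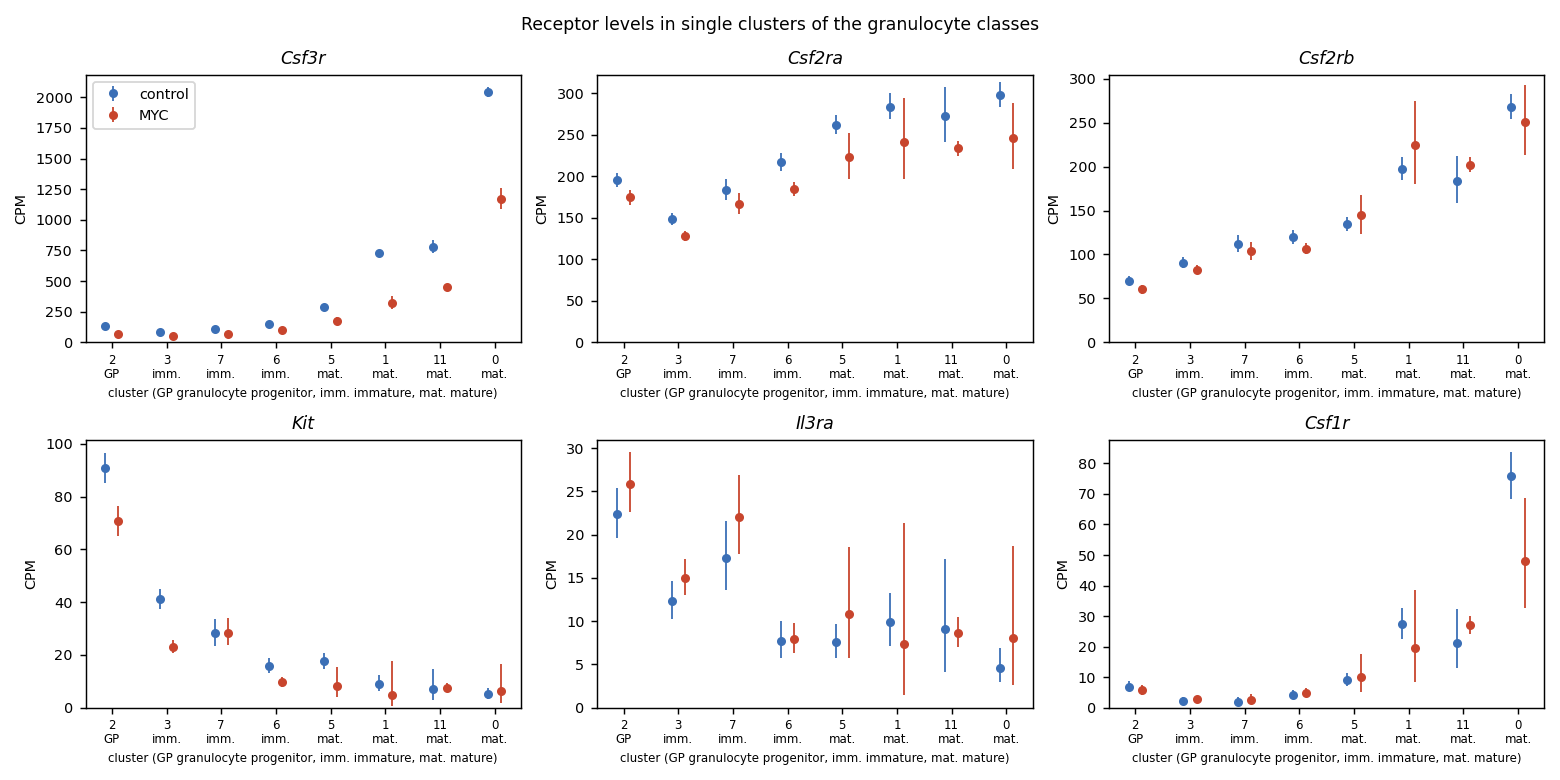
Levels in CPM of 6 receptors in the single clusters of the granulocyte classes, ordered from granulocyte progenitors (cluster 2) through immature (3, 7, 6) to mature neutrophils (5, 1, 11, 0), in control marrow (blue) and MYC marrow (red), with 95% counting intervals. Csf3r reached 2044 CPM in control cluster 0 and was lower in MYC marrow in all 8 clusters, while Csf2rb ran from 70.0 CPM in cluster 2 to 268 CPM in cluster 0 of control marrow.

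Outside the neutrophil lineage, classical monocytes held 94.2 CPM of Csf3r in control marrow and 40.7 CPM in MYC marrow (log2 ratio -1.21, -1.32 to -1.10). Both monocyte clusters showed it, with 128 and 55.3 CPM in cluster 9 and 76.9 and 35.3 CPM in cluster 21. Conventional dendritic cells held 74.5 CPM in control marrow and 19.1 CPM in MYC marrow (-1.96, -2.55 to -1.41). The latter value lay within the range seen in lymphoid classes, 14.0 to 33.1 CPM over mature B, plasma and T or NK cells of both libraries. Csf3r in basophils or mast cells (35.5 and 21.0 CPM) and in early erythroid cells (17.1 and 6.51 CPM) lay just above, inside or under that range, so these levels were not told apart from the background.

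Csf1r (ENSMUSG00000024621, chr18:61100598-61132149), the M-CSF receptor, was highest in mononuclear phagocytes in control marrow: nonclassical monocytes 767 CPM (701 to 838), conventional dendritic cells 287 CPM (262 to 313) and classical monocytes 201 CPM (195 to 208). Mature neutrophils followed with 32.7 CPM (30.1 to 35.4), and each of these classes was apart from the next by its counting interval. In MYC marrow the same classes held 518, 186, 130 and 26.3 CPM. The macrophage class, led by the complement genes C1qa, C1qb and C1qc and scored in MYC marrow only, held 87.8 CPM. This class depended on the clustering: its 635 cells in MYC marrow were 627 at resolution 0.5 and 558 under 5% mitochondrial UMIs. Only 27 cells were so named at resolution 2, and 27 with doublets kept. Classical monocytes (log2 ratio -0.63, -0.70 to -0.56) and conventional dendritic cells (-0.62, -0.83 to -0.42) were lower in MYC marrow past 1.5-fold, although the monocyte call was lost in 6 of 10 alternatives, with log2 ratios between -0.74 and -0.47 over all 10, and the dendritic cell call in 3 of 8. Within single clusters it stood at 342 and 221 CPM in cluster 9 and at 128 and 96.1 CPM in cluster 21. The 3′ end of Csf1r overlaps Hmgxb3 on the opposite strand.

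In mature neutrophils Csf1r was concentrated in cluster 0, at 75.7 CPM in control marrow and 48.2 CPM in MYC marrow, against 27.3 and 19.5 CPM in cluster 1, 9.16 and 10.0 CPM in cluster 5, and 21.1 and 27.0 CPM in cluster 11. The log2 ratio was -0.65 (-1.24 to -0.12) in cluster 0 and 0.36 (-0.28 to 1.07) in cluster 11. After thinning, 34.6% of control classical monocytes and 25.9% of those of MYC marrow held a Csf1r UMI (87.3% and 79.7% unthinned), while T or NK cells showed 1.36% and 0.81%. Csf2rb in classical monocytes was 115 CPM in each library.

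Kit (ENSMUSG00000005672, chr5:75574916-75656722), the receptor of stem cell factor, declined along granulocyte maturation. In the control it was 177 CPM in stem or multipotent progenitors, 90.8 CPM in granulocyte progenitors, 30.3 CPM in immature neutrophils and 11.5 CPM in mature neutrophils. In MYC marrow these levels were 143, 70.7, 19.1 and 7.51 CPM, so the order was the same. Ratios were -0.31 (-0.48 to -0.15) in the stem class and -0.36 (-0.51 to -0.21) in granulocyte progenitors, short of 1.5-fold. In immature neutrophils the log2 ratio was -0.67 (-0.83 to -0.50), but it was 0.02 within cluster 7 (28.1 and 28.5 CPM), against -0.83 in cluster 3 and -0.71 in cluster 6, and the call was kept in 4 of 10 alternatives. The difference in mature neutrophils (-0.61, -0.96 to -0.27) kept its call in 2 of 10 alternatives and turned to 0.18 at a clustering resolution of 0.5. It was -1.07 within cluster 5 and 0.11 within cluster 11.

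On the erythroid side Kit was 77.5 CPM in early erythroid cells of control marrow and 91.8 CPM in those of MYC marrow, a log2 ratio of 0.24 (0.05 to 0.44) that was not past 1.5-fold. Late erythroid cells held 3.63 and 8.04 CPM (1.15, 0.46 to 1.81). Here the make-up of the class differed: cluster 4, the shallower of its 2 clusters, had 16.1 and 25.5 CPM and gave 382 of 1175 control cells but 285 of 473 MYC marrow cells, while cluster 12 had 1.5 and 0.7 CPM. The call was thus not kept within single clusters: the log2 ratio in cluster 4 was 0.66 (-0.11 to 1.42), and cluster 12 held under 50 UMIs of Kit. In basophils or mast cells Kit was 33.7 and 16.3 CPM (-1.05, -1.80 to -0.34), a difference that turned to 0.25 when each cell was given equal weight. In conventional dendritic cells it was 21.4 and 32.1 CPM (0.58, -0.04 to 1.21).

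Flt3 (ENSMUSG00000042817, chr5:147330741-147400489), which supports lymphoid and dendritic precursors, was highest in dendritic cells and stem or multipotent progenitors, followed by classical monocytes. Plasmacytoid dendritic cells held 115 CPM in control marrow and 117 CPM in MYC marrow, and conventional dendritic cells 74.5 and 86.1 CPM (log2 ratio 0.21, -0.14 to 0.56). Classical monocytes held 11.5 and 12.2 CPM. Only the stem class, of the 3 tested, passed the rule, with 75.7 CPM (338 UMIs, 67.8 to 84.2) in control marrow and 34.4 CPM (121 UMIs, 28.5 to 41.1) in MYC marrow, a log2 ratio of -1.14 (-1.45 to -0.83) that stayed past 1.5-fold in 9 of 9 alternatives.

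Lymphoid genes moved with Flt3 in that class. The 8 B progenitor markers summed to 117 CPM in control marrow, with none at 0, and to 20.5 CPM in MYC marrow, with 3 of 8 at 0, and Il7r, the interleukin 7 receptor chain of lymphoid progenitors, had 61 UMIs against 2. Of the stem class, 65 of 198 control cells but 21 of 187 MYC marrow cells held at least 1 UMI of these genes. In the cells with such a UMI, Flt3 was 144 CPM in control marrow and 110.5 CPM in MYC marrow. In the cells without one it was 30.8 and 23.4 CPM, a log2 ratio of -0.40 (-0.87 to 0.08) that did not exclude 0. This subset was chosen after the values were seen, and the median depth of the class also differed, at 21143.5 UMIs in control marrow and 14783 in MYC marrow.

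Kit did not follow that division: cells of the stem class without a lymphoid UMI held 191 CPM of Kit in control marrow and 144 CPM in MYC marrow (-0.41, -0.59 to -0.22), and those with one 157 and 133 CPM. Among cells with a UMI of the stem cell genes Hlf or Mecom, Kit was 190 and 143 CPM and Flt3 79.3 and 41.0 CPM. Among cells without one, Kit was 149 and 142 CPM and Flt3 67.1 and 21.6 CPM. Flt3 was thus lower in MYC marrow in both of these subsets, with log2 ratios of -0.95 (-1.31 to -0.60) and -1.63 (-2.32 to -0.99). Other lists that moved in the class were the granulocyte progenitor markers, 4559 CPM in control marrow and 6429 CPM in MYC marrow, and the eosinophil markers, 302 and 1286 CPM, and their part in the receptor values was not tested.

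**Figure D4:**
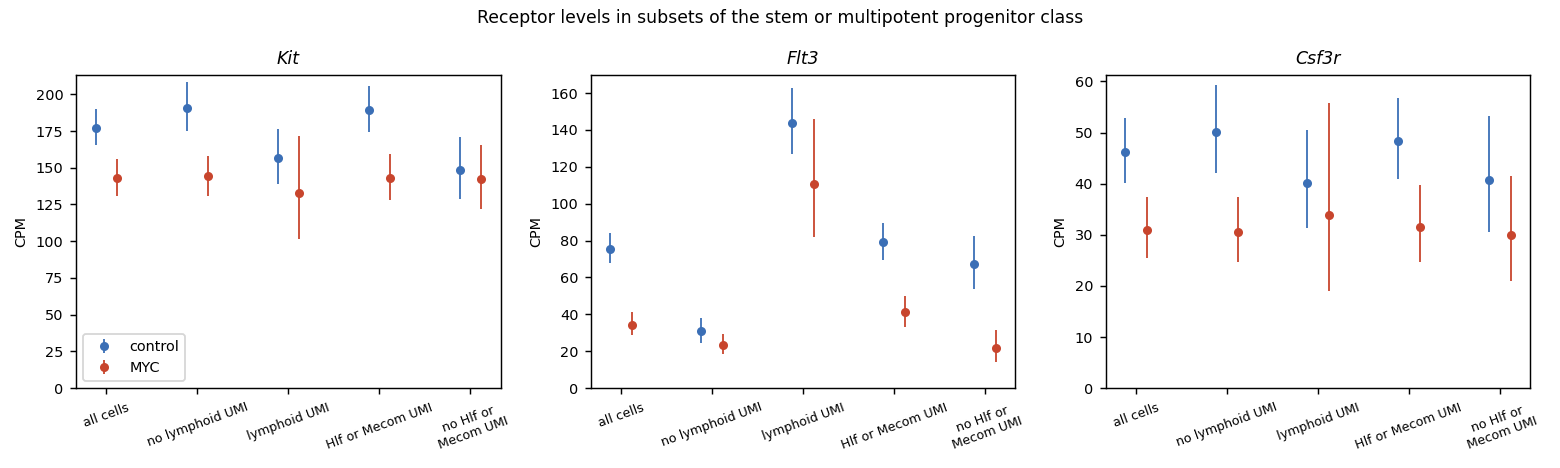
Levels in CPM of Kit, Flt3 and Csf3r in all cells of the stem or multipotent progenitor class and in 4 overlapping subsets, with and without a UMI of the lymphoid genes (B progenitor markers or Il7r) and of Hlf or Mecom, in control marrow (blue) and MYC marrow (red), with 95% counting intervals. Flt3 was 75.7 and 34.4 CPM in all cells but 30.8 and 23.4 CPM in cells without a lymphoid UMI.

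Csf2ra (ENSMUSG00000059326, chr19:61223957-61228429), the alpha chain of the GM-CSF receptor, was spread over the granulocyte and monocyte classes and conventional dendritic cells, with 51.4 and 40.6 CPM in plasmacytoid dendritic cells. In the control it lay between 178 and 278 CPM in granulocyte progenitors, immature and mature neutrophils and both monocyte classes, with 188 CPM in conventional dendritic cells, and in MYC marrow between 150 and 233 CPM in the same classes. The macrophage class of MYC marrow held 221 CPM. Log2 ratios in granulocyte progenitors, both neutrophil classes, classical monocytes and conventional dendritic cells ran from -0.33 to -0.16, where the class medians of all genes ran from -0.29 to -0.04. Stem or multipotent progenitors held 36.5 and 44.4 CPM, well under the granulocyte progenitors (195 and 175 CPM) in both libraries. Within the 4 mature neutrophil clusters the log2 ratios of Csf2ra ran from -0.28 to -0.23.

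Il3ra (ENSMUSG00000068758, chr14:14346275-14356011), the alpha chain of the interleukin 3 receptor, was highest in basophils or mast cells, with 160 CPM (142 to 180) in control marrow and 147 CPM (128 to 168) in MYC marrow. Classical monocytes followed with 47.7 and 42.8 CPM, and the macrophage class held 35.4 CPM. In the granulocyte lineage it declined from 22.4 and 25.9 CPM in granulocyte progenitors to 7.35 and 8.72 CPM in mature neutrophils. No class passed 1.5-fold in either direction among the 9 tested. The widest of the intervals in the myeloid classes was that of conventional dendritic cells, where the log2 ratio was 0.21 (-0.36 to 0.78).

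Csf2rb (ENSMUSG00000071713, chr15:78325752-78353847), the common beta chain shared by the GM-CSF, interleukin 3 and interleukin 5 receptors, differed between the libraries in the class where it was highest. Basophils or mast cells held 656 CPM (1109 UMIs, 618 to 695) in control marrow and 301 CPM (444 UMIs, 274 to 330) in MYC marrow, a log2 ratio of -1.12 (-1.28 to -0.96) that stayed past 1.5-fold in 10 of 10 alternatives. After thinning, 76.8% of 177 control cells and 53.9% of 141 MYC marrow cells held a Csf2rb UMI (97.8% and 91.2% unthinned), and T or NK cells showed 2.44% and 2.42%. The 7 basophil markers summed to 46383 and 50544 CPM, while the granulocyte progenitor markers summed to 3787 and 5359 CPM and the stem markers to 2507 and 1484 CPM in that class, and their part in the difference was not tested.

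In the neutrophil lineage and classical monocytes Csf2rb differed little between the libraries: 189 and 200 CPM in mature neutrophils (0.08, 0.01 to 0.15), 115 and 115 CPM in classical monocytes (0.00, -0.08 to 0.08), 104 and 94.5 CPM in immature neutrophils and 70.0 and 60.4 CPM in granulocyte progenitors. Mature neutrophils thus held about the same Csf2rb and slightly less Csf2ra (278 and 233 CPM), whereas their Csf3r differed 1.99-fold. Within the 4 mature neutrophil clusters the log2 ratios of Csf2rb ran from -0.10 to 0.18, each with an interval that held 0. Along the granulocyte clusters Csf2rb increased in control marrow from 70.0 CPM in cluster 2 to 268 CPM in cluster 0. In the same clusters Kit ran in the opposite direction, from 90.8 to 5.0 CPM.

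Csf2rb2 (ENSMUSG00000071714, chr15:78282507-78305721) lies next to Csf2rb and is a close copy of it. The last 1000 bases of the annotated transcripts, where 3′ reads fall, shared 0 of 951 windows of 50 bases, so the 2 genes could be counted apart there. Csf2rb2 was high in 2 classes: plasmacytoid dendritic cells, with 145 CPM in control marrow and 105 CPM in MYC marrow, and basophils or mast cells, with 106 and 68.5 CPM (log2 ratio -0.64, a call lost in 5 of 10 alternatives). It held 46.3% of all beta chain UMIs in plasmacytoid dendritic cells of control marrow (exact interval 42.4 to 50.1) and 49.6% in MYC marrow (40.9 to 58.4). In granulocyte progenitors that share was 3.68% and 3.20%, in immature neutrophils 7.35% and 7.81%, in classical monocytes 10.4% and 11.6%, and in basophils or mast cells 14.0% and 18.5%. The order of the classes by this share was thus led by plasmacytoid dendritic cells in both libraries, with intervals that did not overlap those of any other class plotted.

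**Figure D5:**
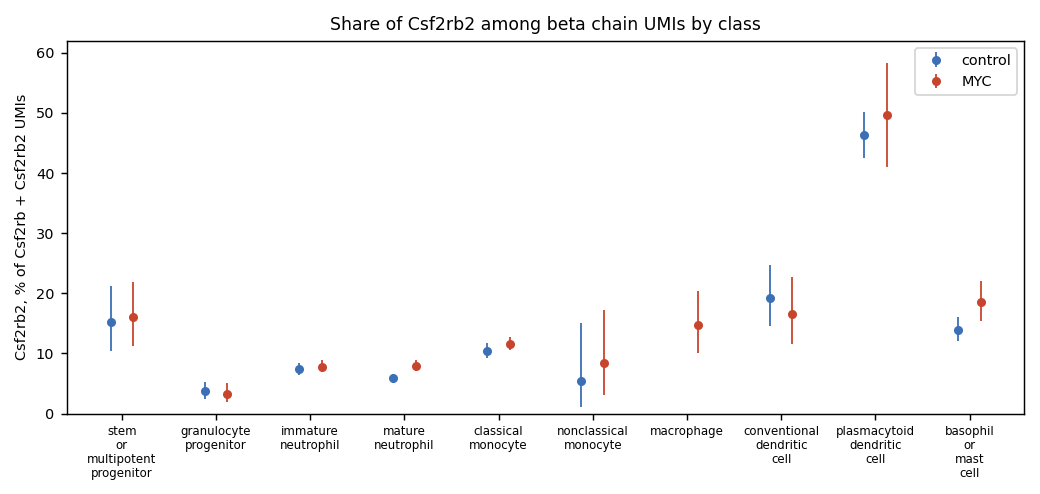
Share of Csf2rb2 among the UMIs of both beta chain genes, in percent, by class in control marrow (blue) and MYC marrow (red), with exact 95% binomial intervals as bars. Plasmacytoid dendritic cells stood at 46.3% and 49.6%, and granulocyte progenitors at 3.68% and 3.20%.

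In mature neutrophils Csf2rb2 was 11.7 CPM in control marrow and 17.2 CPM in MYC marrow (0.55, 0.28 to 0.82), short of 1.5-fold. Its ratio within clusters was 0.81 in cluster 0, 1.32 in cluster 1, 0.85 in cluster 5 and 0.03 in cluster 11. The last of these held most of the mature neutrophils of MYC marrow.

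The receptors higher past 1.5-fold in the erythroid and B classes of MYC marrow were genes at a low level there. In late erythroid cells Csf2ra was 17.7 and 32.9 CPM (log2 ratio 0.89, 0.57 to 1.2), Csf2rb 9.73 and 15.6 CPM (0.68, 0.22 to 1.12) and Csf1r 3.78 and 7.03 CPM (0.90, 0.18 to 1.59). The Csf2rb call was lost in 6 of 9 alternatives, the Csf2ra ratio was 0.38 under 5% mitochondrial UMIs, and the Csf1r ratio was 0.41 with called doublets kept. In the same class the immature neutrophil markers summed to 3300 CPM in control marrow and 7044 CPM in MYC marrow, the mature neutrophil markers to 733 and 972 CPM and the classical monocyte markers to 145 and 320 CPM, with 0 of the 23 genes of these lists at 0 in either library. Csf2ra was 49.4 and 80.7 CPM in cluster 4 but 12.4 and 12.8 CPM in cluster 12. Csf2rb was 27.2 and 33.1 CPM in cluster 4 and 6.79 and 8.20 CPM in cluster 12, with intervals of the ratio that held 0 in both. In mature B cells Csf2rb was 15.9 and 34.3 CPM (1.11, 0.33 to 1.86; 0.32 with called doublets kept), beside mature neutrophil markers of 445 and 1689 CPM. In early erythroid cells Csf2rb was 4.66 and 8.21 CPM (0.82, 0.07 to 1.55), and with called doublets kept the ratio was -0.04. The part of these markers in the receptor values was not tested.

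Epor (ENSMUSG00000006235, chr9:21958897-21963506), which carries the survival signal of erythropoietin in erythroid progenitors, was highest in the 2 erythroid classes in both libraries. Early erythroid cells held 99.1 CPM (92.5 to 106) in control marrow and 89.8 CPM (80.2 to 100) in MYC marrow, a log2 ratio of -0.14 (-0.33 to 0.05). Late erythroid cells held 134 CPM (128 to 140) and 92.9 CPM (83.7 to 103), a log2 ratio of -0.52 (-0.69 to -0.36) that was not past 1.5-fold. Cluster 12, named late erythroid from its leading genes though its top-scoring marker list was early erythroid, had 148 and 109 CPM. Cluster 4 had 47.9 and 55.2 CPM. Summed over all kept cells Epor was 25.8 CPM in control marrow and 8.45 CPM in MYC marrow, beside 275 early and 1175 late erythroid cells in control marrow against 111 and 473 in MYC marrow. Epor was also counted as lower in mature neutrophils (5.2 and 2.55 CPM) and classical monocytes (1.89 and 0.84 CPM), where 97 and 36 UMIs and 35 and 22 UMIs stood against 1840 and 370 UMIs in late erythroid cells. T or NK cells, which should lack Epor, held 3.64 and 1.19 CPM and mature B cells 2.96 and 0 CPM, so these 2 calls, which count among the lower receptors of their classes, were near the background level. No single mature neutrophil cluster held 50 UMIs of Epor.

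Few of the ligands were detected in these cells; many are known to be made by stroma, endothelium, kidney or activated lymphocytes. Over all kept cells Csf1 was 10.0 CPM in control marrow and 5.96 CPM in MYC marrow, Flt3l 9.35 and 6.77 CPM and Kitl 1.14 and 1.17 CPM. Il3 and Epo had 0 UMIs in either library and Csf3 had 1 in each. Csf1, the ligand of Csf1r, was 17.6 CPM in control mature neutrophils and 6.38 CPM in those of MYC marrow (log2 ratio -1.47, -1.82 to -1.13), but 56.8 and 53.0 CPM within cluster 0 and 5.02 and 4.80 CPM within cluster 11. The log2 ratio was -0.10 (-0.67 to 0.42) in cluster 0, while the interval in cluster 11 (-1.37 to 1.61) was too wide to place it. Clusters 1 and 5 had 16 and 12 UMIs in control marrow and 0 in MYC marrow. Its highest level among the myeloid classes tested was in basophils or mast cells, at 325 and 218 CPM, a ratio short of 1.5-fold and picked out after its values were seen.

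Downstream, 78 genes of the signalling chain were read as 1 list of ligands, related receptors, kinases, STAT factors, adaptors, inhibitors and STAT target genes. In classical monocytes 5 of 64 tested were higher (7.56% of all genes) and 16 lower (15.9%), and in mature neutrophils 2 of 63 were higher (7.03%) and 16 lower (19.1%). In granulocyte progenitors 3 of 57 were higher (4.97%) and 14 lower (25.1%), shares near those of all genes. In late erythroid cells 19 of 58 were higher (14.8%) and 8 lower (14.2%), the latter near the share of all genes. Immature neutrophil markers (3300 and 7044 CPM) and classical monocyte markers (145 and 320 CPM) also differed in that class, as did its make-up, with cluster 4 giving 382 of 1175 and 285 of 473 cells, and their part in this count was not tested. The median log2 ratio of the list was -0.36 in classical monocytes, where that of all genes was -0.16, -0.37 in mature neutrophils beside -0.22, and -0.40 in granulocyte progenitors beside -0.29. Stem or multipotent progenitors had 3 of 64 higher (5.43%) and 7 lower (10.4%), again near all genes, with a median of -0.15 beside -0.13. Conventional dendritic cells had 3 of 52 higher (16.9%) and 15 lower (16.2%), with a median of -0.31 beside -0.04. In early erythroid cells 6 of 55 were higher (8.37%) and 12 lower (18.6%), and the median of 0.01 lay above that of all genes, -0.17.

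Socs3, a feedback inhibitor induced by STAT3 that binds the G-CSF receptor, was 2.16 CPM in control monocytes and 17 CPM in those of MYC marrow, and 34.3 and 54.9 CPM in mature neutrophils (21.1 and 56.2 CPM within cluster 11, 103 and 149 CPM within cluster 0, and 13.8 and 26.8 CPM within cluster 1). Of these clusters only cluster 11 passed the rule, as cluster 0 was at 0.53 and the interval of cluster 1 (-0.11 to 1.90) held 0. Cluster 5 went the other way, with 2.60 and 1.67 CPM from 21 and 2 UMIs. Osm, a STAT5 target that encodes oncostatin M, was 157 and 274 CPM in mature neutrophils, with log2 ratios from 0.46 to 0.74 within their 4 clusters. Pim1, a STAT-induced kinase, was 88.9 and 167 CPM in monocytes and 46.9 and 106 CPM in granulocyte progenitors. These were among the few signalling genes higher in MYC marrow. Usp18, an interferon-induced brake on interferon signalling, was lower, at 20.5 and 4.68 CPM in monocytes and 18.2 and 6.52 CPM in mature neutrophils. Within the mature neutrophil clusters its level was 34.3 and 38.5 CPM in cluster 0, 21.5 and 41.4 CPM in cluster 1, 7.43 and 4.18 CPM in cluster 5 and 6.02 and 3.87 CPM in cluster 11. Usp18 was thus not lower in cluster 0 (log2 ratio 0.17, -0.51 to 0.79) and was higher past 1.5-fold in cluster 1 (0.94, 0.10 to 1.70). The log2 ratios of -0.83 (-2.50 to 0.47) in cluster 5 and -0.64 (-1.87 to 0.88) in cluster 11 had intervals that held 0. These within-cluster values were added after the pooled ones were seen.

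Among related receptors Tfrc, the transferrin receptor and a STAT5 target, was higher in MYC marrow in several classes: 47.0 and 152 CPM in stem or multipotent progenitors, 62.2 and 132 CPM in granulocyte progenitors, and 27.2 and 103 CPM in basophils or mast cells. In late erythroid cells Cish, a STAT5-induced inhibitor of erythropoietin and interleukin 3 signalling, was 10.7 and 42.2 CPM, beside the same differences in markers and make-up. Syk, a cytosolic tyrosine kinase, was 123 and 62.5 CPM in the stem class, and Gab2, an adaptor of Kit and beta chain signalling, 67.4 and 29.2 CPM in basophils or mast cells.

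The genes whose pattern over the classes was most like that of a receptor were found by Pearson r of log2(CPM + 1) over 27 points, each a class in 1 library, among 6231 genes, with the 9 receptors themselves left out of the ranking. The points share libraries, depth and background, so r is a description. For Csf3r they were Ppp1r3b (r = 0.89), Mtus1 and N4bp1, for Csf2ra Abcd2 (0.96), App and Rab32, and for Csf1r Hpgd (0.93), Skint3 and Abca9. For Csf2rb they were Alox5ap (0.91), I830077J02Rik and Fes, for Csf2rb2 I830077J02Rik (0.81) and Smim3, and for Il3ra Cebpa (0.90), Fut7 and Nagk. For Kit they were Rab38 (0.84), Smim4 and Thra, for Flt3 Clec10a (0.84), Ccnd1 and Mycl, and for Epor Mboat2 (0.96), Klf1 and Car2, the last 2 of which also served as erythroid markers. Csf2rb and Csf2rb2 had r = 0.88 with each other.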

How the data were processed

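UMI counts per gene and barcode were used as deposited; they were made with Cell Ranger 6.0 per the submitters' processing notes, which also name Seurat and the builds GRCm38 and mm10, and the matrices' file headers name Cell Ranger too. Cells were kept with at least 500 UMIs, 200 genes and under 10% mitochondrial UMIs. Doublets called with Scrublet (scanpy 1.11.5) at an expected 0.8% per 1000 barcodes were removed: 701 (4.53%) of control marrow and 250 (1.94%) of MYC marrow. These were fewer than the 13.7% and 11.6% expected, so doublets are likely to have remained, which was not measured. Leiden clustering (resolution 1, 15 neighbours, 30 components, 2000 variable genes without receptor and signalling genes) gave 27 clusters, named from 159 marker genes of 20 types. Each cluster took the name of its top-scoring marker list, or of a same-class list with more of its 10 leading genes. Cluster 5 was thus named mature neutrophil over immature, and cluster 12 late erythroid over early. A cluster stayed unnamed if another class led these genes. It also did if its UMIs were under 1/3 of its library's median with fewer than 3 markers leading. This rule was settled after the data were seen. Free RNA was not corrected.

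UMIs were summed by class and library and given per 1000000 (CPM). Levels carry exact Poisson, ratios conditional binomial and shares Clopper-Pearson intervals, all at 95% and for counting error only. The scripts were tested on simulated data. Positions are from GENCODE vM21, to which 32235 of 32286 features matched by identifier. The receptors, lists and rules were chosen with earlier results of these data known. All 9 receptors are named; of the signalling list, the up to 3 highest and 3 lowest past 1.5-fold in a class could be named, and for each receptor the 3 genes of highest r. Some genes these rules pick are not reported here. Alternatives were other resolutions, cells classed singly by markers, doublets kept, a 5% mitochondrial limit, other scalings, equal cell weights, 20 UMIs and 2-fold.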

Additional observations from a re-analysis of the deposited data

Results flagged for a closer look

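For 4 receptors the libraries differed past 1.5-fold in opposite directions in different classes; the difference between classes was not tested. Log2 ratios of Csf1r were -0.63 in classical monocytes and -0.62 in conventional dendritic cells but 0.90 in late erythroid cells. Those of Kit were -0.67 in immature neutrophils, -0.61 in mature neutrophils and -1.05 in basophils or mast cells but 1.15 in late erythroid cells. Csf2ra stood at -0.76 in basophils or mast cells and 0.89 in late erythroid cells. Csf2rb stood at -1.12 in basophils or mast cells, 0.82 in early erythroid cells, 0.68 in late erythroid cells and 1.11 in mature B cells. Of these calls, Kit was kept in 4 of 10 alternatives in immature neutrophils and in 2 of 10 in mature neutrophils, and in late erythroid cells it was not kept within cluster 4 (0.66). Csf1r was kept in 4 of 10 in classical monocytes and in 5 of 8 in late erythroid cells. Csf2ra was kept in 6 of 10 in basophils or mast cells and in 8 of 10 in late erythroid cells. Csf2rb was kept in 10 of 10 in basophils or mast cells, 8 of 9 in mature B cells and 3 of 9 in late erythroid cells. In early erythroid cells Csf2rb turned to -0.04 with doublets kept. The higher calls were at low levels, and neutrophil markers also differed in late erythroid and mature B cells.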

How the results depend on the processing

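No paired analysis was possible because each genotype had 1 library. Of 225 recomputed ratios that passed 1.5-fold in the main values, 168 still passed the same way. The 6 higher pairs became 10 with cells classed singly, 2 with doublets kept, 1 under 5% mitochondrial UMIs and 2 at 2-fold; the 18 lower pairs became 10 under median-of-ratios scaling and 9 at 2-fold. Of the signalling list, 53 higher and 125 lower pairs became 28 and 26 at 2-fold, and the lower ones 67 under median-of-ratios scaling, where 74 were higher. Of 68 shares of at least 10%, 39 were left on thinning to 1000 UMIs. Of the 27 most alike genes, 14 were kept with a pseudocount of 10 CPM and 9 by Spearman rho. Log2 ratios turned sign for Kit in mature neutrophils (0.18 at resolution 0.5, 0.11 within cluster 11), Kit in immature neutrophils (0.0167 within cluster 7), Kit in basophils or mast cells (0.25 with equal cell weights), Csf2ra in basophils or mast cells (0.0069 at resolution 0.5) and Csf2rb in early erythroid cells (-0.038 with doublets kept). The within-cluster values were added after seeing the data, and the cause of these changes was not tested. The basophil or mast cell class at resolution 0.5 held 388 control and 337 MYC marrow cells, against 186 and 148 in the main classes. The Csf3r ratio stayed below 0 under the alternatives that recomputed it (other thresholds leave it as it is) in granulocyte progenitors, both neutrophil classes and classical monocytes. Classes under 200 cells a library, such as basophils or mast cells and the stem class, limit the precision of their ratios.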

Other observations

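The unnamed low-UMI clusters, which entered no comparison, held receptor UMIs of several lineages side by side. Csf3r was 210 CPM in control marrow and 83.5 CPM in MYC marrow there, Csf2ra 232 and 191 CPM, Csf1r 55.4 and 60.8 CPM, and Epor 50.03 and 16.1 CPM. Megakaryocytes, with 60 cells in each library, held 12 UMIs of Epor in control marrow (32.3 CPM, 16.7 to 56.4) and 3 in MYC marrow. Nonclassical monocytes, with 119 and 62 cells, held 80.8 CPM of Csf2rb in control marrow (60.3 to 106) and 143 CPM in MYC marrow (111 to 182). In plasma cells Csf2rb was 25.2 CPM in control marrow (21.0 to 29.9) and 41.5 CPM in MYC marrow (32.6 to 52.1).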
